A study of Homo sapiens with 15 samples.

Results

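The genes described here are 10 members of the NF-kB system, taken by name: the subunit genes NFKB1, NFKB2, REL, RELA and RELB, the feedback inhibitor genes NFKBIA and TNFAIP3, and the target genes TNFAIP2, VCAM1 and ICAM1. They are 10 of the 16324 genes listed in one or both of 2 deposited count tables. Transcripts were counted in immortalized human astrocytes (IHA), an established line of fetal origin immortalized with SV40, grown in medium with serum and EGF. Doxycycline at 1 µg/ml induced the R132H mutant of IDH1, the cytosolic isocitrate dehydrogenase. The genotype label reads WT IDH1 in all 15 samples, and no sample received doxycycline without the inducible gene, so an effect of the drug and one of the mutant enzyme cannot be told apart. The groups were 5 samples at day 7 of doxycycline (1 tagged b1 and 4 tagged b2 in their titles), 4 samples at day 3 (all b2) and 6 samples without doxycycline (3 of b1 and 3 of b2), for which no day is given. The labels do not say what the tags stand for, nor that the samples came from separate cultures, so p-values measure only the spread between these samples, which may be technical.

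NF-kB is a family of dimeric transcription factors built from RELA, RELB, c-Rel (from REL), p50 (from NFKB1) and p52 (from NFKB2). IkB proteins hold the dimers in the cytoplasm until a kinase complex, set off by cytokines such as TNF and interleukin-1, marks the inhibitors for destruction. The freed dimers enter the nucleus and switch on target genes, among them the genes of their own inhibitors: NFKBIA encodes IkB alpha, and TNFAIP3 encodes A20, a ubiquitin-editing enzyme that shuts the upstream signal down. In astrocytes the pathway is known for driving cytokines, chemokines and the leukocyte adhesion molecules VCAM-1 and ICAM-1 under inflammation.

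The promoters of the 5 members on which the results turn are shown first, because TNFAIP3, VCAM1 and TNFAIP2 all passed a test at day 7 in b2 but not in the same direction, and NFKBIA and ICAM1 differed between b1 and b2. Each line holds the 250 bases upstream of the RefSeq start on GRCh38.p14, written 5′ to 3′ on the gene's own strand. The GENCODE gene positions given below start elsewhere for TNFAIP3, TNFAIP2 and ICAM1. Part of the TNFAIP3 and TNFAIP2 windows and all of the ICAM1 window lie inside those spans. Capitals mark matches, on either strand, to the NF-kB consensus motif or to the shorter motif GGAAATTCC, which can overlap.
TNFAIP3, chr6:137867009-137867258, plus strand: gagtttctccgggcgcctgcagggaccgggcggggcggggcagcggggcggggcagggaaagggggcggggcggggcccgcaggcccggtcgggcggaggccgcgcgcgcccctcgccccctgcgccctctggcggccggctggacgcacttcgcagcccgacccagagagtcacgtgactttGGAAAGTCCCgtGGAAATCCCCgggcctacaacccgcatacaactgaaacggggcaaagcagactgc
VCAM1, chr1:100719492-100719741, plus strand: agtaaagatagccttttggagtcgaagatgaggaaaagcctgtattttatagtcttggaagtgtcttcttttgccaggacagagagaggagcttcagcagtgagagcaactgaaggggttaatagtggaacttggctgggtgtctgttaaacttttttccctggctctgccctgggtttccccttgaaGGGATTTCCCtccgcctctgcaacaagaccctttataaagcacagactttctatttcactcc
TNFAIP2, chr14:103123211-103123460, plus strand: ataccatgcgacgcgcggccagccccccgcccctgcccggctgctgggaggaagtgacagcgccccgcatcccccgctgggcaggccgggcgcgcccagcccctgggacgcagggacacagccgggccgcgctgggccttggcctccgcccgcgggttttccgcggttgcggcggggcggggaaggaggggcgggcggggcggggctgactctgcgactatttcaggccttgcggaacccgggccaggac
NFKBIA, chr14:35404750-35404999, minus strand: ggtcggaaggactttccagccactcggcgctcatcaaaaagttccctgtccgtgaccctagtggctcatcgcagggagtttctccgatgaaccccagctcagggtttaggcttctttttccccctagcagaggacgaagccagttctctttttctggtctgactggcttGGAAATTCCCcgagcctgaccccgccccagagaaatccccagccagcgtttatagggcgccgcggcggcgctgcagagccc
ICAM1, chr19:10270870-10271119, plus strand: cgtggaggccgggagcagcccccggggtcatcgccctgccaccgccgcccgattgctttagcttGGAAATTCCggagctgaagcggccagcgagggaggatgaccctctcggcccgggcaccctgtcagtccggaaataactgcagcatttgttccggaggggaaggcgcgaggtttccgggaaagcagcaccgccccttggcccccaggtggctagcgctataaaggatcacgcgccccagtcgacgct
TNFAIP3 had 2 consensus matches, VCAM1 had 1 and NFKBIA had 1, while the TNFAIP2 window had none and the ICAM1 window held only the shorter motif. Besides RELB, the 9 other members had 13 windows in all, of which 7, from 6 genes, held the consensus. Of 35116 promoter windows of the same length, 9.96% held the consensus and 0.41% the shorter motif. A match describes the letters of a window and says nothing of which factor binds there.

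Bulk MARS-seq primes from the 3′ ends of transcripts and tags each molecule with a unique molecular identifier (UMI), so a gene's count does not grow with its length. The day 7 table held 2573290 to 5567651 UMIs in each of 11 libraries, and 1816599 to 4656705 UMIs were held by each of the 11 b2 libraries of the day 3 and day 7 table. Levels are given as CPM, UMI counts scaled to a common library size with TMM factors. IDH1 itself had 43.3 CPM in day 7 b1 and 28.5 to 38.5 CPM in day 7 b2, against 34.98 to 36.7 CPM in untreated b1 and 26.3 to 35.2 CPM in untreated b2, and did not pass the test at day 7 (log2 change 0.22 ± 0.11, SE, edgeR adjusted p = 0.178). The labels do not say whether the induced copy has a 3′ end that these counts would catch, so IDH1 does not check the labels. Of 12 astrocyte markers, VIM, CD44, SOX9, GJA1 and ALDOC were well counted, SLC1A3, NES and S100B were low, and GFAP, AQP4, SLC1A2 and ALDH1L1 were not listed. All 4 T cell markers and 8 of 10 myeloid markers, PTPRC and AIF1 among them, were not listed either.

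The tables were counted differently, and this decided what could be said of REL. In the 7 b2 libraries that both tables hold, REL summed to 233 UMIs in the day 3 and day 7 table and to 12 UMIs in the day 7 table, a ratio of 19.4. The ratio of the other 9 members lay between 0.82 (NFKB2) and 1.02 (RELA), and over 9841 genes with at least 100 UMIs its median was 0.944, with 0.133 and 1.03 as the 5th and 95th percentiles. GENCODE places REL at chr2:60881521-60931610 on GRCh38 and annotates an overlapping noncoding RNA, AC010733.2, on the same strand at its 3′ end. Whether that overlap bears on the counts was not tested. In the day 7 table REL had 8 UMIs in day 7 b2-17, 2 in day 7 b2-20, 1 in day 7 b2-19, 1 in untreated b2-1 and 0 in the other 7 libraries, and was too low to test. The 9 other members passed the filter there, and all 10 passed it in the day 3 and day 7 table.

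At day 7, doxycycline moved one feedback inhibitor up and one adhesion molecule down, while none of the subunit genes was called. With b1 and b2 as a term of the model, TNFAIP3 rose 1.49-fold and VCAM1 fell to 0.60 of its untreated level, and the other 7 tested members did not pass the test. Of all 12449 genes tested, 8.43% were called higher and 7.28% lower, so 1 member up and 1 down among 9 is a share near that of all genes. The median log2 change of the 9 members was 0.09, against -0.02 over all genes. This comparison pools 2 tags whose effects on several members differed, which the values by library show.

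**Figure D1:**
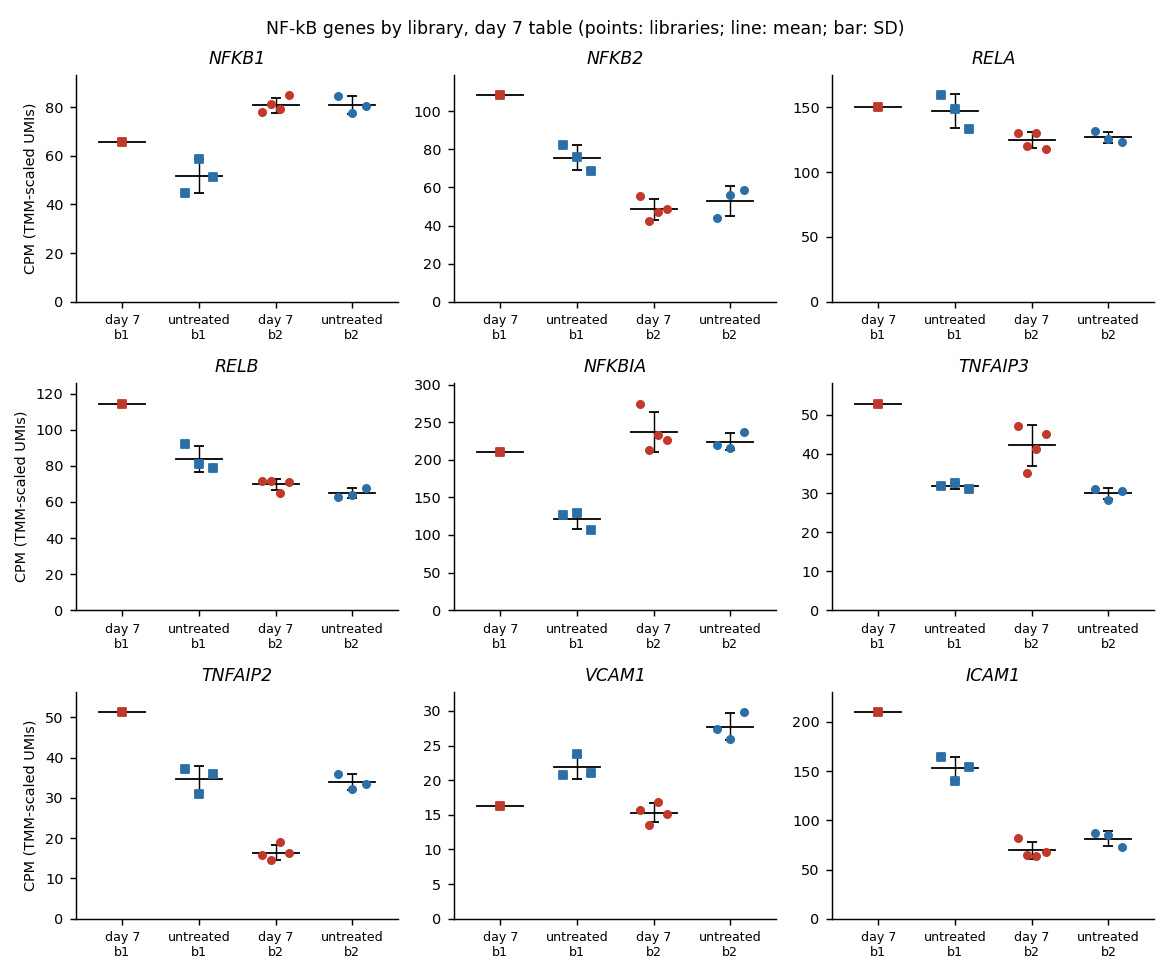
Level (CPM, linear axis from 0) of the 9 tested members in each library of the day 7 table, grouped as day 7 b1, untreated b1, day 7 b2 and untreated b2. Points are libraries (squares b1, circles b2), lines are means and bars are SDs, which the single day 7 b1 library lacks. TNFAIP3 was higher and VCAM1 lower in all 5 day 7 libraries than in all 6 untreated ones, and TNFAIP2 lay lowest in day 7 b2 and highest in day 7 b1.

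TNFAIP3 (ENSG00000118503, chr6:137867188-137883312, plus strand), the A20 gene, had 52.9 CPM in day 7 b1-13 and 47.2, 35.1, 41.4 and 45.2 CPM in day 7 b2-17 to b2-20. Its untreated levels were 31.8, 32.6 and 31.0 CPM in b1-1 to b1-3 and 31.0, 28.2 and 30.5 CPM in b2-1, b2-2 and b2-4. Every day 7 library was above every untreated one, and b2-18 came nearest to them. The log2 change was 0.57 ± 0.10 (SE, edgeR adjusted p = 0.00038), with 0.74 ± 0.17 within b1 (adjusted p = 0.00826) and 0.51 ± 0.11 within b2 (adjusted p = 0.00212). The effects within b1 and within b2 differed by 0.23, with a 95% interval of -0.20 to 0.65. TNFAIP3 has 2 consensus matches in the window shown above, both inside the gene span given here. It is overlapped by an antisense gene, AL357060.1, and whether reads were counted by strand is not stated.

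NFKBIA (ENSG00000100906, chr14:35401511-35404749, minus strand), the IkB alpha gene, was the other feedback inhibitor. It had 209.9 CPM in day 7 b1-13, against 127, 129 and 106 CPM in untreated b1-1 to b1-3. In b2 it had 275, 213, 233 and 226 CPM at day 7, against 219, 215 and 237 CPM untreated. The b1 library at day 7 stood above its own untreated libraries, while the b2 groups overlapped. Within b1 NFKBIA rose 1.75-fold (log2 change 0.81 ± 0.13, SE, adjusted p = 0.000302). Within b2 its log2 change was 0.09 ± 0.08 (adjusted p = 0.524), and the pooled value was 0.29 ± 0.11 (adjusted p = 0.0971). The pooled value passed without day 7 b2-18 (0.35, adjusted p = 0.0454).

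Of the subunit genes, NFKB1, NFKB2, RELA and RELB had pooled log2 changes of 0.09, 0.09, -0.01 and 0.21 at day 7. None was called by edgeR, DESeq2 or limma-voom, and RELB alone had an unadjusted p under 0.05. RELA, which supplies the main activating partner of the classical dimer, had 149.9 CPM in day 7 b1-13 and 118 to 130 CPM in day 7 b2, against 134 to 159 CPM in untreated b1 and 123 to 131 CPM in untreated b2. Its day 7 and untreated ranges overlapped in both tags, and its 95% interval for the pooled log2 change ran from -0.16 to 0.14. NFKB1, the gene of p105 and p50, had 65.6 CPM in day 7 b1-13, against 44.7, 58.7 and 51.3 CPM in untreated b1. In b2 it averaged 80.8 ± 3.11 CPM at day 7 (SD, n = 4) and 80.9 ± 3.59 CPM untreated (SD, n = 3), with overlapping ranges.

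NFKB2 and RELB, whose products form the alternative dimer, did not pass the pooled test either. NFKB2, the gene of p100 and p52, had 109 CPM in day 7 b1-13, against 82.1, 76.2 and 68.8 CPM in untreated b1. In b2 it had 55.7, 42.2, 47.1 and 48.7 CPM at day 7, against 44.0, 55.9 and 58.9 CPM untreated. RELB had 114 CPM in day 7 b1-13, against 92.1, 80.8 and 78.7 CPM in untreated b1. In b2 it had 71.7, 71.5, 65.2 and 71.0 CPM at day 7, against 62.7, 63.7 and 67.9 CPM untreated. Both were higher in the b1 library than in all 3 of its untreated libraries, while their b2 groups overlapped. Without day 7 b2-19, the pooled RELB change passed the test (0.25, adjusted p = 0.0488). CLASRP lies near the 3′ end of RELB on the same strand, and PSD near that of NFKB2 on the opposite strand. Reads near those ends may not all be their own. RELA is overlapped by AP001362.2 on the opposite strand.

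VCAM1 (ENSG00000162692, chr1:100719742-100739045, plus strand) encodes the adhesion molecule that binds integrin alpha-4 beta-1 on leukocytes. It had 16.3 CPM in day 7 b1-13 and 15.7, 13.5, 16.9 and 15.1 CPM in day 7 b2, from 41 to 97 UMIs a library. Untreated cells had 20.8, 23.7 and 21.0 CPM in b1 and 27.3, 26.0 and 29.8 CPM in b2, from 61 to 143 UMIs. All 5 day 7 libraries lay below all 6 untreated ones, with the widest gap in b2. The pooled log2 change was -0.74 ± 0.12 (SE, adjusted p = 0.000255). Within b2 it was -0.83 ± 0.13 (adjusted p = 6.23e-05), and within b1, with 1 day 7 library, -0.41 ± 0.24 (adjusted p = 0.323). The difference between the tags was 0.42, with a 95% interval of -0.15 to 0.98.

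TNFAIP2 (ENSG00000185215, chr14:103123442-103137439, plus strand) is a TNF-induced gene whose product takes part in the growth of thin membrane tubes between cells. It had 51.3 CPM in day 7 b1-13, against 37.1, 31.1 and 36.0 CPM in untreated b1. In b2 it had 15.7, 14.7, 19.1 and 16.2 CPM at day 7, against 36.1, 32.3 and 33.4 CPM untreated. The untreated levels of the 2 tags overlapped, and the day 7 levels lay on opposite sides of them. Within b2 TNFAIP2 fell 2.03-fold (log2 change -1.02 ± 0.12, SE, adjusted p = 1.46e-06). Within b1, with its single day 7 library, the log2 change was 0.55 ± 0.18 and was not called. That outcome changed without day 7 b2-17 or b2-19, and also under other processing with all libraries kept. The pooled value of -0.51 ± 0.25 was not called (adjusted p = 0.201). Without day 7 b1-13 the pooled fit gave -1.01 (adjusted p = 2.76e-06).

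ICAM1 (ENSG00000090339, chr19:10270835-10286615, plus strand), the ligand of the leukocyte integrins LFA-1 and Mac-1, had 209.9 CPM in day 7 b1-13, against 164, 140 and 154 CPM in untreated b1. In b2 it had 82.4, 65.2, 63.3 and 67.8 CPM at day 7, against 86.6, 84.8 and 72.9 CPM untreated. The b1 library was above its untreated libraries, and in b2 3 of 4 day 7 libraries were below all untreated ones. The pooled log2 change was -0.00 ± 0.11, from 0.45 ± 0.13 within b1 (adjusted p = 0.038) and -0.23 ± 0.10 within b2 (adjusted p = 0.115). The b2 value passed without day 7 b2-17 (-0.32, adjusted p = 0.0111). With all libraries kept, its adjusted p ran from 0.0352 to 0.234 over 6 other settings of tool, size factors and filter. The antisense genes AC011511.2 and AC011511.5 overlap ICAM1 and ICAM4 lies next to its 3′ end, so reads near that end may not all be its own.

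The interaction test called a difference in the day 7 effect between the tags for TNFAIP2, NFKBIA and ICAM1. The b1 arm at day 7 is a single library of 2769069 UMIs, whose spread is taken from the other groups, so the tag and that library cannot be told apart. The effect within b1 minus that within b2 was 1.57 ± 0.22 for TNFAIP2 (log2, SE, adjusted p = 7.54e-05), 0.71 ± 0.16 for NFKBIA (adjusted p = 0.0119) and 0.68 ± 0.17 for ICAM1 (adjusted p = 0.0222). NFKB2 came next, with 0.64 ± 0.19 (adjusted p = 0.0756), and passed without day 7 b2-17 (adjusted p = 0.0163) or without untreated b2-1 (adjusted p = 0.0264). The ICAM1 difference was lost without untreated b1-2 (adjusted p = 0.0694) or without untreated b2-2 (adjusted p = 0.0643). Of 13371 genes tested, 1.02% were called with a higher and 1.42% with a lower effect in b1, against 3 of 9 members, all higher. The median difference was 0.42 over the 9 members and -0.02 over all genes.

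Within b1, 5 of the 9 tested members were called higher at day 7, against 3.56% of all genes called higher and 3.38% called lower. They were NFKBIA, TNFAIP3, NFKB2 (log2 change 0.52, adjusted p = 0.0437), RELB (0.45, adjusted p = 0.0366) and ICAM1 (0.45, adjusted p = 0.038). NFKBIA and TNFAIP3 passed in each alternative run, whereas NFKB2, RELB and ICAM1 lost the call without untreated b1-2 or b1-3, or with library sizes alone. DESeq2 and limma-voom also called fewer members within b1 than edgeR did. Within b2, TNFAIP3 was called higher and TNFAIP2 and VCAM1 lower, against 7.37% and 6.94% of all genes. Mitochondrially encoded genes took 1.79% of the UMIs in day 7 b1-13 and 1.58% to 1.72% in day 7 b2, against 1.501% to 1.58% in untreated b1 and 1.23% to 1.31% in untreated b2. The 5 listed endothelial markers of 9 summed to 109 CPM in day 7 b1-13 and 53.6 to 57.8 CPM in day 7 b2, against 74.5 to 76.7 CPM in untreated b1 and 57.8 to 70.7 CPM in untreated b2, while PECAM1, CDH5, VWF and KDR were not listed. EGFL7 carried the b1 value, and TIE1 was called lower within b2 (-0.82). The 2 listed myeloid markers of 10, CSF1R (2.09) and CD68 (0.43), were called higher within b2 and summed to 55.5 to 61.3 CPM at day 7 there, against 40.9 to 44.3 CPM untreated. CSF1R had only 1 to 14 UMIs a library, at most 3.98 CPM, so CD68 made up nearly all of that sum. The 3 listed fibroblast and pericyte markers of 6 summed to 155 CPM in day 7 b1-13, against 201 to 231 CPM in untreated b1. In b2 they summed to 232 to 348 CPM at day 7, against 347 to 367 CPM untreated. THY1 had the highest mean of the 3, at 164 CPM over the libraries of the day 7 table. CSPG4 was called lower within b2 (-0.39), and in the pooled test both THY1 (-0.40) and CSPG4 (-0.40) were called lower. Astrocyte markers moved as well. Of 7 tested, SOX9 (0.64) and CD44 (0.40) were called higher and ALDOC (-0.83) lower in the pooled test. Over all genes of that test, 8.43% were called higher and 7.28% lower. The part of the mitochondrial share and of these markers in the results was not tested.

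**Figure D2:**
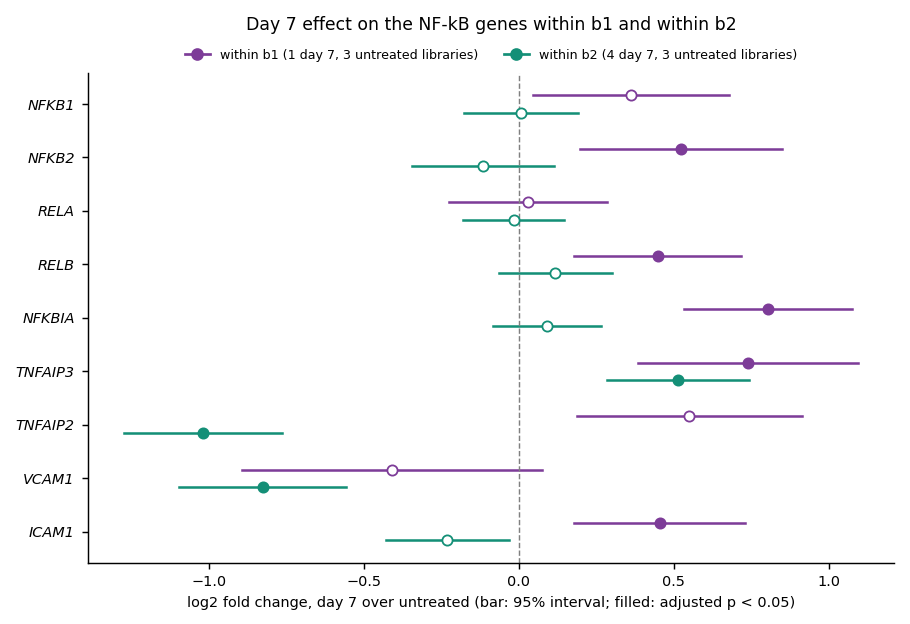
Log2 fold change of day 7 over untreated for the 9 tested members, within b1 (purple, 1 day 7 and 3 untreated libraries) and within b2 (green, 4 day 7 and 3 untreated libraries), from the 4-group edgeR fit. Bars are 95% intervals and filled points passed the test. TNFAIP3 lay above 0 and VCAM1 below 0 in both, whereas TNFAIP2 was at 0.55 within b1 and -1.02 within b2.

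The tags also differed before any doxycycline. In untreated cells, 7 of the 9 tested members differed between b2 and b1, 3 higher and 4 lower in b2, where 22.5% of all genes were called higher and 21.8% lower. NFKBIA averaged 224 ± 11.3 CPM in b2 and 121 ± 12.4 CPM in b1 (SD, n = 3 each), a log2 difference of 0.90 ± 0.09 (SE, adjusted p = 1.63e-08). ICAM1 was the reverse, with 81.4 ± 7.46 CPM in b2 and 153 ± 12.0 CPM in b1 (log2 difference -0.90 ± 0.10, adjusted p = 3.86e-08). The ranges of the 2 tags did not overlap for either gene. NFKB1 was higher in b2 (0.67 ± 0.10, adjusted p = 5.5e-06), and NFKB2 (-0.51 ± 0.12, adjusted p = 0.00072) and RELB (-0.37 ± 0.09, adjusted p = 0.00202) were lower. VCAM1 (0.35, adjusted p = 0.0411) and RELA (-0.21, adjusted p = 0.0495) passed narrowly and lost the call under DESeq2 and without 6 (VCAM1) or 7 (RELA) of the 11 libraries left out in turn. TNFAIP3 (-0.09) and TNFAIP2 (-0.04) were not called. In order of level, ICAM1 and RELA stood highest in untreated b1, with overlapping ranges, while NFKBIA stood highest in untreated b2, well apart from RELA at 127 ± 4.35 CPM.

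The time course within b2 came from the other table, in which the same 3 untreated libraries serve both the day 3 and the day 7 effect. At day 3, VCAM1 alone of the 10 members was called, and it was lower. Its levels were 29.4, 29.5 and 35.1 CPM untreated, 26.4, 19.3, 20.2 and 17.3 CPM at day 3, and 18.4, 15.2, 19.0 and 16.4 CPM at day 7. All 4 day 3 libraries lay below the 3 untreated ones, with b2-9 nearest to them. The log2 change at day 3 was -0.60 ± 0.15 (SE, edgeR adjusted p = 0.0221), where 1.84% of 10586 genes were called higher and 1.67% lower. The call was lost under DESeq2 (adjusted p = 0.0606) and without day 3 b2-10, b2-11 or b2-12 or untreated b2-2 or b2-4 (adjusted p = 0.0516 to 0.112), and the authors' deposited table gives an adjusted p of 0.0731. Between day 3 and day 7 the VCAM1 ranges overlapped (log2 change -0.24 ± 0.15, adjusted p = 0.437).

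**Figure D3:**
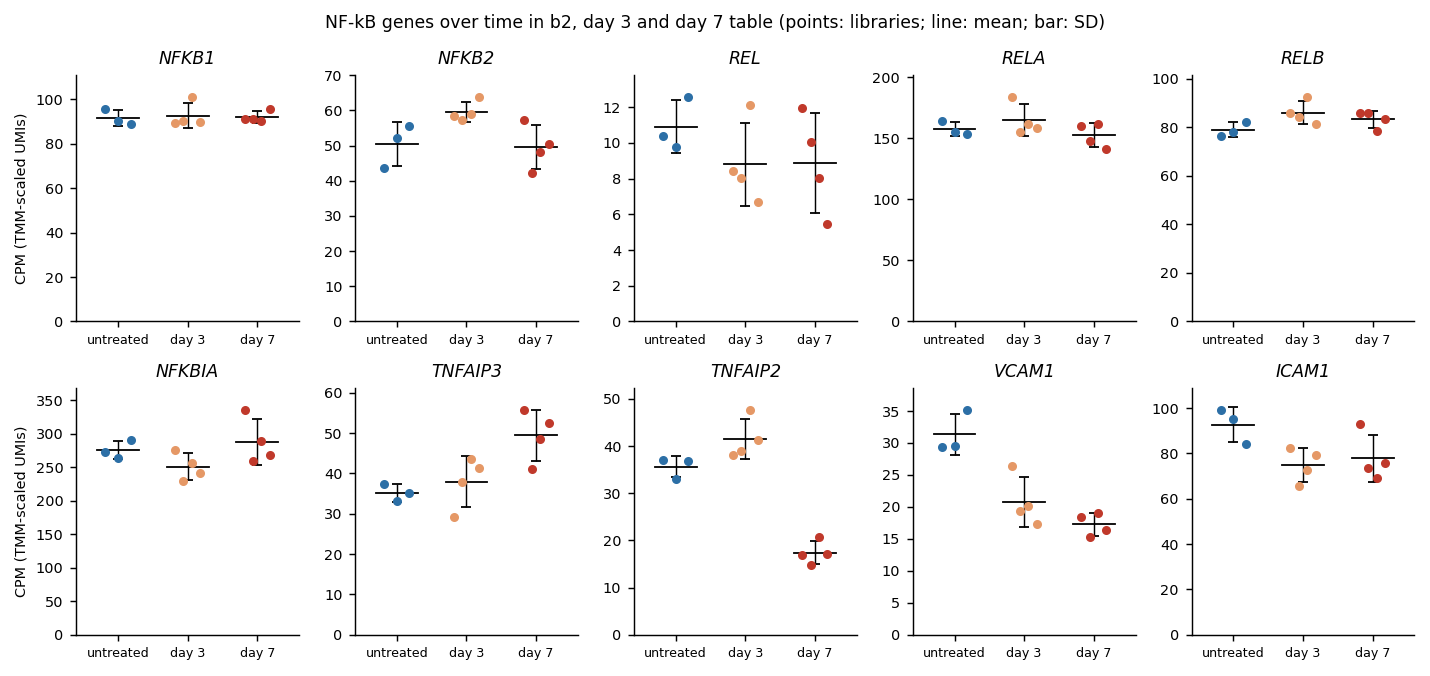
Level (CPM, linear axis from 0) of the 10 members in b2 without doxycycline, at day 3 and at day 7, from the day 3 and day 7 table. Points are libraries (3, 4 and 4), lines are means and bars are SDs. VCAM1 was already lower at day 3, TNFAIP2 was lowest at day 7, and TNFAIP3 was highest at day 7.

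TNFAIP2 had another course. It had 37.1, 33.1 and 36.8 CPM untreated, 38.2, 39.0, 47.6 and 41.3 CPM at day 3, and 16.8, 14.9, 20.7 and 17.1 CPM at day 7. Every day 3 library was above the 3 untreated ones, and every day 7 library was below all 7 of the others. From day 3 to day 7 it fell 2.35-fold (log2 change -1.23 ± 0.13, SE, adjusted p = 1.09e-07), and it was the only one of the 10 members called between these days, where 2.76% of genes were higher and 2.31% lower. The log2 change at day 3 was 0.23 ± 0.13 and was not called (adjusted p = 0.37).

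TNFAIP3 had 37.4, 33.1 and 35.1 CPM untreated, 29.2, 37.9, 43.6 and 41.3 CPM at day 3, and 55.7, 41.2, 48.4 and 52.5 CPM at day 7. Of the day 3 libraries, 3 of 4 were above all 3 untreated ones and b2-9 was below them (log2 change 0.13 ± 0.13, adjusted p = 0.68), and 3 of 4 day 7 libraries were above all 7 of the others. Day 7 over day 3 gave 0.37 ± 0.12 (adjusted p = 0.0646), which passed without day 7 b2-18 (adjusted p = 0.0334). ICAM1 had 99.0, 95.01 and 84.1 CPM untreated, 82.6, 65.6, 72.7 and 79.2 CPM at day 3, and 92.9, 73.4, 69.2 and 75.6 CPM at day 7. Its day 3 libraries were all below its untreated ones (-0.32 ± 0.10, adjusted p = 0.0924), which passed without day 7 b2-17 (adjusted p = 0.0262) and in a fit of the 2 groups alone (adjusted p = 0.0411).

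The subunit genes and NFKBIA were not called at any step of the time course by edgeR, DESeq2 or limma-voom, where NFKB2 at both steps and NFKBIA from day 3 to day 7 had an unadjusted p under 0.05. NFKB2 averaged 50.4 ± 6.15 CPM untreated, 59.6 ± 2.90 CPM at day 3 and 49.5 ± 6.21 CPM at day 7 (SD, n = 3, 4 and 4), and all 4 day 3 libraries were above the 3 untreated ones (0.25 ± 0.11, adjusted p = 0.258). From day 3 to day 7 its log2 change of -0.27 ± 0.10 (adjusted p = 0.144) passed without day 7 b2-17 (-0.34, adjusted p = 0.0439). REL, the c-Rel gene, was the lowest member, with 10.4, 9.77 and 12.6 CPM untreated, 8.42, 8.02, 12.1 and 6.69 CPM at day 3, and 12.0, 10.0, 8.04 and 5.45 CPM at day 7. The REL ranges overlapped at every step, with a 95% interval of -0.78 to 0.18 for the log2 change of day 7 over untreated. RELA, RELB, NFKB1 and NFKBIA had day 3 log2 changes of 0.06, 0.12, 0.01 and -0.14. Day 7 against untreated in this table repeats 7 of the libraries used above and gave TNFAIP3 0.50, TNFAIP2 -1.004 and VCAM1 -0.83 as its called members, where 8.27% of genes were higher and 7.31% lower.

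Around the 10 members, other genes of the pathway were read from 4 pathway lists and 1 list of immunoglobulin and leukocyte adhesion molecules. The lists were chosen with earlier results of these data known, so their counts describe the listed genes and do not test the pathway. The list of other NF-kB target genes held the most calls at day 7, with 17 of 35 tested genes higher and 1 lower and a median log2 change of 0.25, against 8.43% and 7.28% called and a median of -0.02 over all genes. Its 4 calls with the smallest p were LIF, a cytokine (0.89 ± 0.08, adjusted p = 5.61e-08), IER3, an early stress gene (0.68 ± 0.07), SOD2, the mitochondrial superoxide dismutase (0.94 ± 0.09), and PLAU, the urokinase (0.66 ± 0.07). GADD45B, named after its value was seen, was the one called lower (-0.42 ± 0.12). Without the tag term the list had 11 genes higher and none lower, and PLAU lost the call (adjusted p = 0.331).

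**Figure D4:**
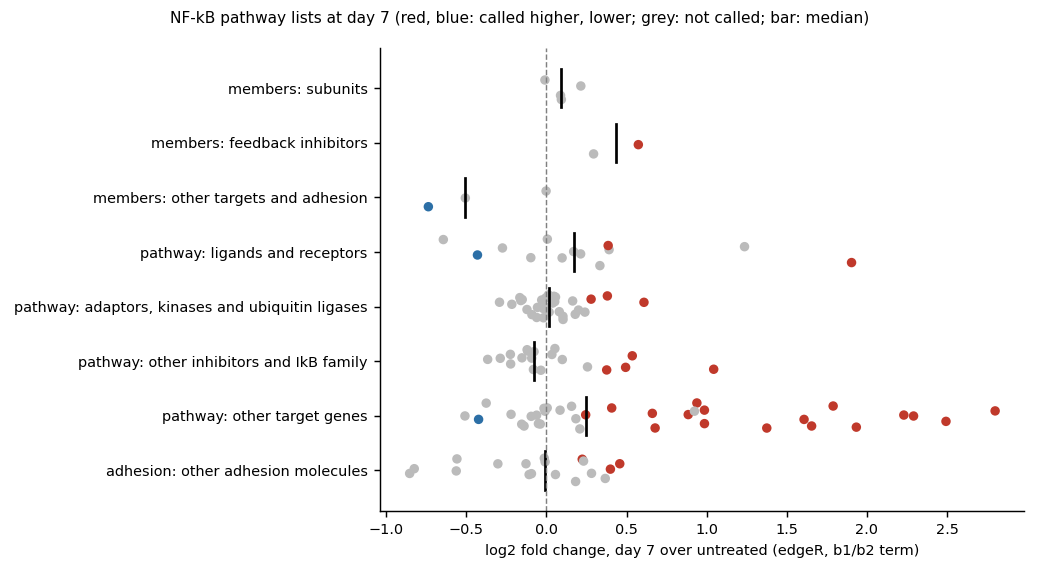
Log2 fold change of day 7 over untreated, with b1 and b2 as a model term, for each tested gene of the 3 member groups and the 5 surrounding lists. Each point is a gene, red where called higher, blue where called lower and grey where not called, and black bars are medians. The list of other target genes reached furthest to the right, while adaptors, kinases and ubiquitin ligases gathered near 0.

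The calls of the remaining lists are read against the same 8.43% higher and 7.28% lower over all genes, and 3 of 30 is near that share. Of 13 tested ligands and receptors, IL1B, the interleukin-1 beta gene (1.90 ± 0.13, adjusted p = 1.21e-06), and TNFRSF12A, the TWEAK receptor (0.39 ± 0.06), rose, and TNFSF12, its ligand TWEAK, fell (-0.43 ± 0.09). Of 30 adaptors, kinases and ubiquitin ligases, 3 were higher: IRAK2 (0.38), an interleukin-1 receptor adaptor, the kinase IKBKE (0.61) and the death-receptor adaptor FADD (0.28), and the list median was 0.02. Of 19 other inhibitors and IkB family genes, 4 were higher and none lower, with a median of -0.08. They were NFKBIB, the IkB beta gene (0.54 ± 0.09), ZC3H12A, an RNase that degrades cytokine messages (1.04 ± 0.17), TNIP1, an A20 partner (0.38 ± 0.07), and NFKBIZ, a nuclear IkB (0.49 ± 0.16). NFKBIZ lost the call without day 7 b1-13 (0.22, adjusted p = 0.211). Of 18 other immunoglobulin and leukocyte adhesion molecules, CD276 (0.46 ± 0.08), CD44 (0.40 ± 0.07) and JAM3 (0.22 ± 0.07) were higher. None was called lower in the pooled test, and the list median was -0.01. ALCAM, which was lower within each tag, is given further below. NFKBIZ, FADD and JAM3 each lost the call without at least 5 of the 11 libraries left out in turn. Without the tag term each of these 4 lists kept 1 call, in place of 3, 3, 4 and 3: IL1B, IRAK2, NFKBIB and CD44 passed, and the other genes named here did not (adjusted p = 0.0804 for TNIP1 to 0.723 for CD276). IKBKE also lost the call in b2 alone (adjusted p = 0.0561) and in the other table (adjusted p = 0.117).

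At day 3, 7 of 33 other target genes were called higher and none lower, led by SOD2 (0.72 ± 0.09, adjusted p = 7.39e-06), with a list median of 0.14 against 0.00 over all genes, of which 1.84% were higher and 1.67% lower. CSF3 (1.56 ± 0.27), IL11 (0.60 ± 0.10) and PTGS2, the inducible cyclooxygenase (2.04 ± 0.43), followed. Between day 3 and day 7, 12 of 33 were higher, among them CXCL1 (0.97 ± 0.08), C3 (1.89 ± 0.18), CSF2 (1.20 ± 0.13) and LIF (0.57 ± 0.07), and JUNB, named after its value was seen, was lower (-0.50 ± 0.09). The list median between these days was 0.09 against 0.01 over all genes, of which 2.76% were higher and 2.31% lower. Chemokine genes of the CXCL1 to CXCL3 group are close copies of each other, and how reads shared between them were counted is not stated. IL1B rose at both steps, by 0.37 ± 0.07 at day 3 and by 1.25 ± 0.07 from day 3 to day 7. BCL3, an atypical IkB, was called higher at day 3 (0.29, adjusted p = 0.0369) and lower from day 3 to day 7 (-0.32, adjusted p = 0.00612). NFKBIB was higher at day 3 (0.33, adjusted p = 0.036), and both day 3 calls were lost under DESeq2 and without each day 3 or untreated library in turn.

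The day 7 effect on other target genes was compared between the tags in the same way, with the same single b1 library at day 7. Of 35 tested, 11 had a higher effect within b1 than within b2 and 1 a lower one, with a median difference of 0.57 against -0.02 over all 13371 genes, of which 1.02% were higher and 1.42% lower. CXCL1 (1.75 ± 0.13, adjusted p = 3.98e-09), IL6 (1.15 ± 0.14), CXCL2 (1.89 ± 0.24) and CSF2 (1.61 ± 0.23) had the smallest p-values, and the lower one was F3, the tissue factor gene (-1.22 ± 0.18), named after its value was seen. Among the other lists, IL1B (0.86 ± 0.13) and NFKBIZ (1.14 ± 0.24) had a higher effect within b1. EGFR (-1.45 ± 0.29) and the adhesion gene ALCAM (-1.62 ± 0.26) had a lower one, as did CD44 (-0.44 ± 0.12), which passed narrowly (adjusted p = 0.0477). ALCAM itself was lower at day 7 within both tags. Over 6 other settings of tool, size factors and filter, its log2 change was -2.08 to -1.93 within b1 and -0.38 to -0.32 within b2. None of the 30 adaptors, kinases and ubiquitin ligases was called by edgeR, where 8 had an unadjusted p under 0.05, nor by DESeq2 or limma-voom. In bulk RNA, fewer cells making a transcript and less of it per cell cannot be told apart.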

How the data were processed

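RNA of immortalized human astrocytes was profiled by a bulk form of MARS-seq. The authors deposited 2 tables of raw UMI counts, whole numbers per gene and library, per the file headers. bcl2fastq, cutadapt, STAR 2.4.2a, HTSeq and DESeq2, and the build hg38, are named in the submitters' processing notes without roles. In both tables every listed gene reached at least 6 UMIs in some library. The authors also deposited log2 fold changes and adjusted p-values, per the file headers. Only the adjusted p-values are printed here, and no source used here gives the model behind them. The 55 other per-sample columns were not used.

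Samples were grouped by treatment and by the tag b1 or b2 in their titles. In the day 3 and day 7 table the columns of untreated libraries 1 and 2 carry names that a b1 and a b2 sample share, and were taken as b2 because all its other columns are b2. Their counts also lay near those of b2 in the day 7 table. NFKBIA had 922 UMIs in column 1, against 907 in b2-1 and 520 in b1-1. In column 2 it had 1191 UMIs, against 1185 in b2-2 and 331 in b1-2. The tables were fitted apart, because their counts for the same libraries differ. Genes were filtered with filterByExpr (minimum count 10), given TMM factors, and fitted by robust quasi-likelihood in edgeR 4.0.16 (R 4.3.3). Calls are Benjamini-Hochberg adjusted p-values under 0.05, adjusted over every gene of the fit. Day 7 against untreated had the tag as a term. The difference of effects and the contrasts within b1, within b2 and between untreated tags came from a 4-group fit of the day 7 table, and the time course from a 3-group fit of the other table. The scripts were tested on simulated counts. Day 7 against untreated recovered 66% of simulated 1.5-fold and 90% of 2-fold changes. Day 3 against untreated recovered 46.3% and 87.0%, and day 7 against day 3 recovered 52.0% and 87.3%. For untreated b2 against b1 the values were 49.0% and 71.2%. The difference between the tags recovered 2.02% and 18.8%, so a gene not called there may still differ by that much. Alternatives were DESeq2 1.42.0, limma-voom (limma 3.58.1), other size factors, other filters, no tag term, b2 alone, the other table, and each library left out. The within-tag contrasts and the alternatives of the pathway lists were chosen after seeing the data.

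Depth was 2573290 to 5567651 and 1816599 to 4656705 UMIs per library, so the least abundant members rest on few UMIs. Promoter windows come from RefSeq on GRCh38.p14 and gene positions from GENCODE on GRCh38. Figures used matplotlib 3.10.9. All 10 members were tested in every comparison where they passed the filter, though not every value is printed. Of each pathway or adhesion list, at most the 4 called genes with the smallest p are named. GADD45B, JUNB and F3, named after their values were seen, are the exceptions. The members and lists were chosen with earlier results of these data known.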

Additional observations from a re-analysis of the deposited data

Results flagged for a closer look

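The day 7 effect differed between b1 and b2 for 3 members by the interaction test of edgeR. TNFAIP2 had an effect 1.57 higher in b1 on the log2 scale (higher in the 1 day 7 library of b1, lower in 4 of 4 of b2), NFKBIA one 0.713 higher and ICAM1 one 0.685 higher. Each rests on the single day 7 library of b1.

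A library stood apart from the rest of its group in 3 of 29 groups of 4 checked, where chance flags about 1 in 20. NFKB1 had 101 CPM in day 3 b2-11, above its 3 companions (89.3 to 90.4 CPM), and 95.9 CPM in day 7 b2-20 of the same table. RELB had 65.2 CPM in day 7 b2-19 of the day 7 table, below the 71.0 to 71.7 CPM of the other 3. The day 7 b2 libraries were checked in both tables, so the 29 checks are not independent. Neither day 7 flag recurred in the other table's counts of the same library.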

How the results depend on the processing

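No paired analysis was possible because the doxycycline and untreated groups share no replicate number. The difference between b1 and b2 could not be fitted without day 7 b1-13.

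TNFAIP3 (0.50 to 0.63) and VCAM1 (-0.83 to -0.66) kept direction and call at day 7 under all 20 alternatives, and so did TNFAIP2 and NFKBIA in the difference between the tags under all 16. Without the tag term, 323 genes were called at day 7 in place of 1955, and limma-voom called 205 in place of 326 for the difference between the tags. Within b1, DESeq2 and limma-voom each called 3 members and library size alone 2, in place of 5. Within b2, DESeq2 called 1178 genes in place of 1913. At day 3, DESeq2 called 0 members, and library size alone and the fit of 2 groups called 2, in place of 1. The causes were not tested.

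Leaving out each library gave 195 to 687 genes for the difference, 607 to 1358 genes and 2 to 6 members within b1, 1214 to 2167 genes within b2, 191 to 578 genes and 0 to 2 members at day 3, and 1 to 2 members from day 3 to day 7. The 687 came without day 7 b2-17, and so did the 578 at day 3.

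The direction turned for members near 0. At day 7, NFKB2 gave -0.091 without the tag term, -0.10 in b2 alone, -0.019 in the other table and -0.11 to 0.17 with libraries left out. RELA at day 7 gave 0.0024 by DESeq2, 0.0026 by RLE, 0.0085 without a filter, 0.0048 with a stricter filter and -0.028 to 0.018 with libraries left out. ICAM1 at day 7 gave 0.0080, 0.011, 0.015 and 0.011 under the same 4 settings and -0.23 to 0.063 with libraries left out. With library size alone, RELA gave -0.026 for the difference (-0.027 to 0.11 with libraries left out) and -0.097 within b1 (-0.039 to 0.095). TNFAIP2 gave 0.019 between untreated b2 and b1 (-0.11 to 0.0034). NFKB1 gave -0.046 within b2 (-0.029 to 0.041) and -0.023 at day 3 (-0.033 to 0.042). With libraries left out, RELA within b2 ran from -0.042 to 0.012, and from day 3 to day 7 NFKB1 ran from -0.035 to 0.031, REL from -0.18 to 0.18 and ICAM1 from -0.042 to 0.10.

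In the day 7 table VCAM1 rests on 41 to 143 UMIs a library, TNFAIP2 on 51 to 178 and REL on 0 to 8.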
